A study of Oryza sativa with 2 samples.

Results

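Signals of 3 genes annotated to the lignin pathway, CAD2, CAD8C and LAC10, were followed in rice leaves with yellow tips and in green leaves. The members were all probe sets assigned to 1 gene whose symbol or synonym, without a leading Os, is CAD2, CAD8C or LAC10. This gave 3 genes read by 4 probe sets, of 17905 genes read by 22436 probe sets with a single gene in the annotation. The yellow leaf tip array held leaf RNA of F9Y recombinant inbred lines, whose source is called mutant. The green array held leaf RNA of F9G recombinant inbred lines, called normal green. Recombinant inbred lines are fixed by repeated inbreeding from a cross of parental lines, and both groups were sampled in the vegetative stage. The labels name leaves in the titles and leaf tips in the descriptions, and the sources used here do not say how many plants or lines each RNA came from. The study is of SA0420, a rice mutant that senesces early, and its arrays were made to compare gene expression between yellow-tipped and green plants.

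Lignin is the phenolic polymer that stiffens the walls of xylem vessels and fibres, the cells that carry water and support in a leaf. Its building blocks, the monolignols, are made from phenylalanine in a chain of steps that begins with phenylalanine ammonia-lyase (PAL) and ends with cinnamyl alcohol dehydrogenase (CAD), which reduces cinnamyl aldehydes to alcohols. Outside the cell, laccases, which are copper-containing oxidases, and peroxidases turn monolignols into radicals that couple into the polymer. In rice, CAD2 is the gene also listed as GH2, for gold hull and internode, a mutant colour that comes with loss of this enzyme. CAD8C and LAC10 belong to the CAD and laccase gene families.

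Each group had 1 array and there was no replicate, so no test was possible, and every difference compares these arrays rather than the conditions. Values are signal intensities, compared here between arrays for a probe set but not between probe sets. Their scaling is not given, so that the arrays are comparable is assumed. The median over all rice probe sets was 80.5 in yellow leaf tips against 97.5 in green leaves. Differences are yellow leaf tip minus green, on the scale of log2 of signal plus a pseudocount of 22.6, centred on the median of all kept probe sets. They understate the change of dim genes. A probe set was kept where the mean of both arrays reached 86.0, and a gene counted as higher or lower once its mean centred difference reached 1 in that direction, a 2-fold change. Of the 4 member probe sets, 3 were kept, 1 for each gene, and each of these read above 86.0 on both arrays. The brightest of the 42 bacterial control probe sets, whose targets rice does not make, read 56.9 in yellow leaf tips, against 97.6 in green leaves.

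The label of the tissue was checked against leaf genes. Of the 7 mesophyll markers with a probe set, 6 were kept, among them CAB2R, a light-harvesting protein gene, with 43925 in yellow leaf tips against 53288 in green leaves, and the Rubisco activase gene RCA with 21428 against 25272. Their differences were -0.23 and -0.20. The aldolase genes FBA1, with 9443 against 4972 (0.97), and FBA3, with 6376 against 3073 (0.92), lay on the other side, and the 6 ran from -0.50 to 0.97. Some markers of other tissues were kept too, 1 of 3 with a probe set for root and 5 of 8 for seed and anther. The root gene LSI1 had 762 in yellow leaf tips against 1244 in green leaves, and the seed gene GLUA-2 had 822 against 1186. Such signals limit what the check can show.

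CAD2 and LAC10 had higher signals in yellow leaf tips, each about 2.5-fold (2.49-fold and 2.50-fold), while CAD8C had a lower signal, by less than 2-fold. CAD2 and LAC10 were therefore counted as higher and CAD8C was not counted. In bulk leaf RNA, more cells of a type and more RNA per cell cannot be told apart. Nor can leaf colour and line, since the yellow-tipped leaves came from F9Y lines and the green ones from F9G lines. Of all 14697 kept genes, 5.57% were higher by at least 2-fold, 3.18% were lower and 8.76% were either. With 3 members, the count of 2 is a description of these genes.

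CAD2, the monolignol dehydrogenase gene, read 4469 in yellow leaf tips against 1841 in green leaves. Both values stood far above the bacterial controls, and the probe set's name carries no mark of possible cross-hybridization. The log2 difference was 1.32. Of all kept genes, 453 (3.08%) were at least as high, and among the 1470 genes of like signal (the kept genes were split into 10 groups by mean signal) 34 (2.31%) were. In that group, 4.08% of genes were higher by at least 2-fold. Probe sets that read the same gene differed there with a pooled SD of 0.38 (185 genes). The difference of CAD2 was 3.44 times this SD, which covers disagreement between probes and neither plants nor arrays.

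LAC10, the laccase gene, read 699 in yellow leaf tips against 276 in green leaves. It was dimmer on the green array, where it read 2.83 times the brightest bacterial control. Its log2 difference was 1.32, as for CAD2, and the gap between them was 0.0055. At least as high were 447 (3.04%) of all kept genes and 43 (2.93%) of the 1469 genes of like signal, of which 5.31% were higher by at least 2-fold. The SD between probe sets of 1 gene at this signal was 0.47 (275 genes), and the difference was 2.84 times as large. LAC10, like CAD2, was read by a single probe set, so no second probe set checks either value.

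CAD8C was read by 2 probe sets, and they did not give the same picture. The kept one read 7700 in yellow leaf tips against 13177 in green leaves, a log2 difference of -0.72 (1.65-fold lower in yellow leaf tips). The other had 61.1 in yellow leaf tips against 52.1 in green leaves, a difference of 0.21, and its green value lay below the brightest bacterial control. The direction given for CAD8C therefore rests on the bright probe set alone. Among the 1470 brightest genes, 88 (5.99%) were at least as low and 2.11% were lower by at least 2-fold. The SD between probe sets of 1 gene was 0.40 there (220 genes), and the difference of CAD8C was 1.83 times as large.

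**Figure D1:**
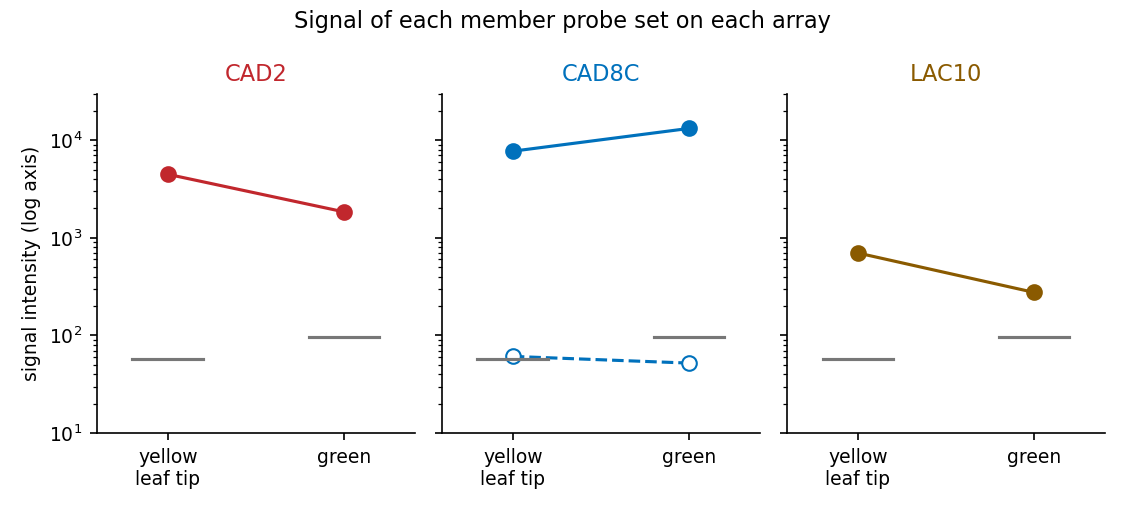
Signal intensity (log axis) of the 4 member probe sets in yellow leaf tips (left) and green leaves (right), with kept probe sets filled and the probe set below the filter open and dashed. Grey bars mark the brightest bacterial control of each array, 56.9 in yellow leaf tips against 97.6 in green leaves. CAD2 and LAC10 slope down towards green, the bright CAD8C probe set slopes up, and the dim one lies near the controls.

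The gap between the log2 differences of CAD2 and CAD8C, both of the CAD family, was 2.04. The gap between LAC10 and CAD8C was 2.05. In the gene table used for names, CAD8C stands in a run of 4 neighbouring family genes, with CAD8A and CAD8B before it and CAD8D after it. CAD8B and CAD8D had no probe set of their own in the annotation. Whether the bright CAD8C probe set also reads these neighbours was not tested. The gene next after CAD2, LOC4328553, had 2834 in yellow leaf tips against 1126 in green leaves, a log2 difference of 1.37. The gene just before CAD2 had no probe set of its own. The nearest other measured genes, LOC4328550 before CAD2 and LOC4328555 after it, differed by -0.39 and 0.29. LOC4328555 was dim, with 112 in yellow leaf tips against 91.4 in green leaves, the latter below the brightest bacterial control. Both genes beside LAC10 had no probe set of their own.

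**Figure D2:**
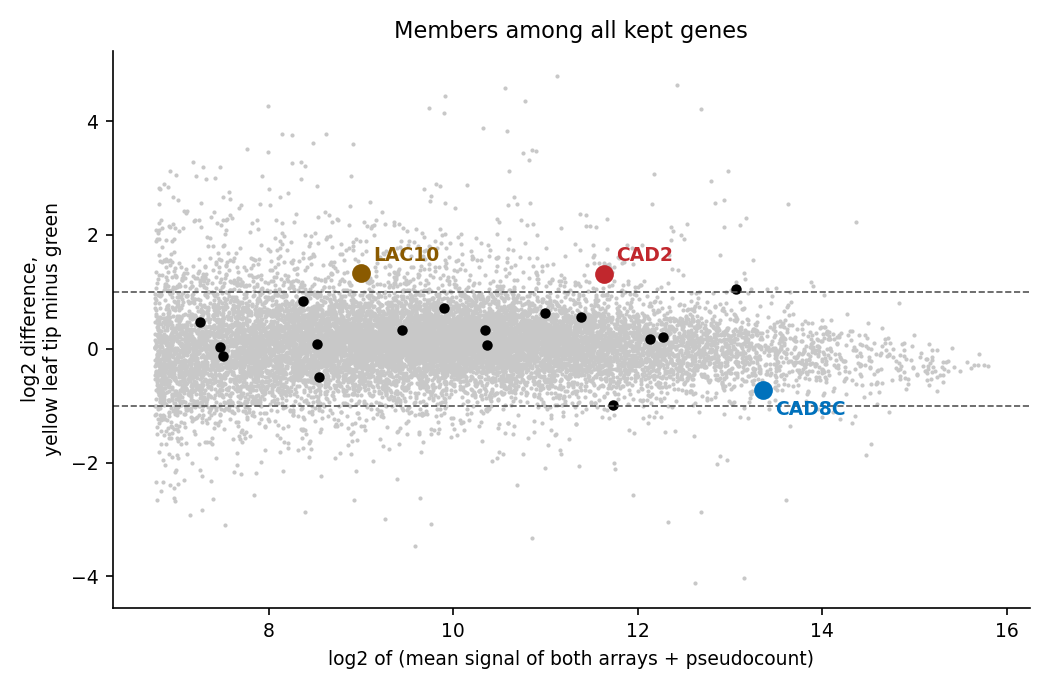
Log2 difference, yellow leaf tip minus green, of the 14697 kept genes (grey) against the log2 of their mean signal plus pseudocount. The members are large and coloured, other kept lignin pathway genes are black, and dashed lines mark 2-fold. CAD2 and LAC10 lie at 1.32, above the upper line, and CAD8C lies at -0.72, inside the lines.

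Of the other kept CAD genes, CAD3 and CAD1 were on the high side. CAD3 read 11400 in yellow leaf tips against 5677 in green leaves, a log2 difference of 1.05, just past 2-fold, and 0.98 with a stricter filter. CAD1 had 3121 against 2197 (0.55), and CAD6 had 154 against 157 (0.03, and -0.02 without centring). CAD7, the FLEXIBLE CULM gene of rice culm strength, was below the filter with 5.70 in yellow leaf tips against 7.55 in green leaves, both under the brightest control. CAD8A was below it too, with 49.7 against 7.52, and both of these values were also within the controls. Among the 5 kept genes of the family, 2 were higher by at least 2-fold and none was lower, against 5.57% and 3.18% of all kept genes. One of the 2 is the member CAD2, and of the 3 that are not members CAD3 was higher. CAD8C alone had a difference below 0 as reported, joined by CAD6 without centring.

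The laccases were spread on both sides of 0. LAC7 had 2213 in yellow leaf tips against 4551 in green leaves, a log2 difference of -0.98, just short of 2-fold lower and past it under 4 of 9 other settings. LAC3 had 153 against 108 (0.47) and LAC4 had 148 against 169 (-0.12). The green value of LAC3 was near that of the brightest bacterial control, 97.6. The difference of LAC4 was smaller than 0.46, the SD between probe sets of a gene over all signals. Of the 4 kept laccases, the member LAC10 was past 2-fold and the 3 others were not, where 8.76% of all kept genes were past it in either direction. A further 5 laccase genes were below the filter and within the bacterial controls on both arrays. LAC20 had 48.5 in yellow leaf tips against 8.41 in green leaves, LAC19 had 2.55 against 93.9, LAC24 had 27.4 against 56.6, LAC15 had 45.0 against 55.6, and LAC23 had 5.04 against 14.9. No direction is given for these genes.

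The steps before CAD differed by less than 2-fold for each of the 10 kept genes, as did 13410 of all 14697 kept genes. The first is PAL, and the gene listed under that name had a mean signal of 5285 in yellow leaf tips against 4554 in green leaves, with a log2 difference of 0.20 over 5 probe sets spread by 0.34, of which the names of 3 mark possible cross-hybridization. ZB8, another PAL gene, had 286 against 417 (-0.50), on 2 probe sets that both lay below 0. The next group, 4-coumarate:CoA ligase, activates the acids made from phenylalanine. All 5 of its genes were above 0, as were 56.6% of all kept genes. 4CL5 had 397 in yellow leaf tips against 221 in green leaves (0.84), 4CL2 had 1152 against 715 (0.72), and 4CL3 had 740 against 606 (0.33). The gene 4CL4 had 4654 against 4261 (0.18) and the gene listed as 4CL had 351 against 341 (0.09). The differences of 4CL3, 4CL4 and 4CL were smaller than 0.46, the SD between probe sets of a gene over all signals.

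The HCT genes, named for the transferase that links these acids to shikimate, differed by less than 2-fold too, and no direction can be given for HCT3. HCT1 had 2428 in yellow leaf tips against 1620 in green leaves (0.63), HCT2 had 1402 against 1153 (0.33), and HCT3 had 1302 against 1293 (0.06, and -0.04 after quantile normalization and after loess). The steps between HCT and CAD were hardly read. CCR1, the cinnamoyl-CoA reductase gene, had 45.0 in yellow leaf tips against 102 in green leaves. It was below the filter and was named after its values were seen. The gene listed as C3H1 was matched by symbol alone, and this symbol is also used in rice for zinc finger genes. Its place in the pathway is therefore not settled, and it enters the list only as 1 of the genes below the filter.

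Over the whole list of lignin pathway genes, 28 had a probe set of their own and 19 were kept. Of these 19, CAD2, CAD3 and LAC10 were higher by at least 2-fold (15.8%, against 5.57% of all kept genes) and none was lower, and 15 (78.9%) were above 0, against 56.6% of all kept genes. Of the 16 genes that are not members, 1 (6.25%), CAD3, was higher by at least 2-fold, a share near that of all kept genes. The number above 0 was 14 without centring, after quantile normalization and after loess. The median difference was 0.33, against 0.08 over all kept genes, and 0.26 over the genes that are not members. The list holds the members, which were chosen with results known, so these counts are descriptions. Of the 9 genes below the filter, 8 were within the bacterial controls on both arrays.

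**Figure D3:**
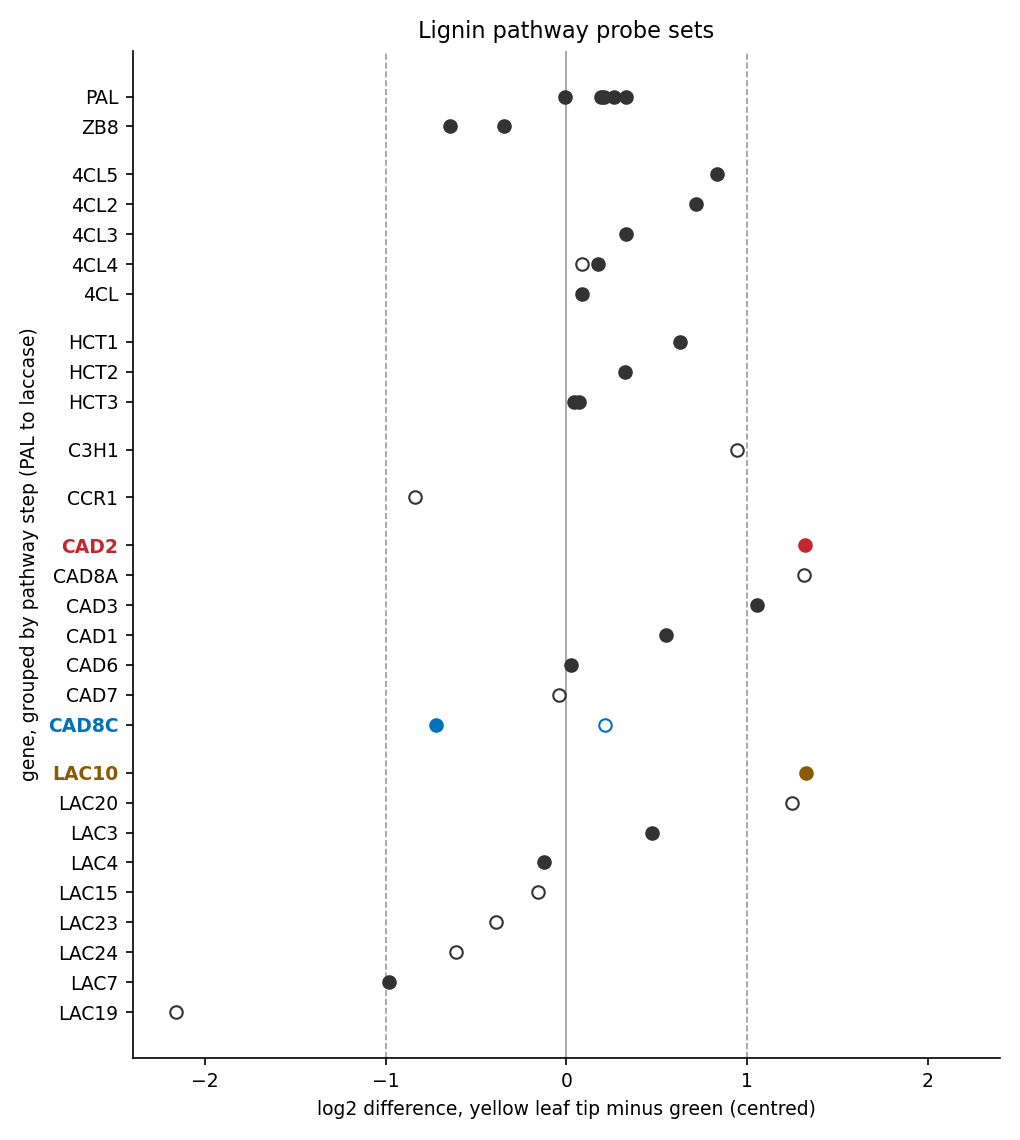
Log2 difference, yellow leaf tip minus green, of each lignin pathway probe set, by gene and ordered from PAL at the top to laccases at the bottom. Kept probe sets are filled, those below the filter are open, members are coloured, and dashed lines mark 2-fold. The place of C3H1 in the pathway is not settled. Filled points past a dashed line belong to CAD2, CAD3 and LAC10, all on the high side, and LAC7 stops just short on the low side.

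Of the genes listed for the secondary wall, whose cellulose is laid down in the same cells as lignin, the 5 kept were above 0 by less than 2-fold. CESA7, CESA4 and CESA9 encode the cellulose synthase subunits of secondary walls. CESA7 had 1019 in yellow leaf tips against 628 in green leaves (0.73), CESA4 had 873 against 577 (0.60) on 2 probe sets that differed by 0.41, and CESA9 had 302 against 269 (0.21). The brittle culm gene BC1 at LOC4333114 had 730 against 578 (0.38), and MYB30, a transcription factor gene, had 2974 against 2539 (0.13) on 2 probe sets of opposite sign. The 5 kept genes had a median of 0.38, against 0.08 over all 14697 kept genes. Of all kept genes, 56.6% were above 0 and 13410 differed by less than 2-fold. Of the 6 listed, the other gene listed as BC1 (LOC4347540) was below the filter, with 5.74 against 32.9, both within the bacterial controls.

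CESA4, CESA7, CESA9 and BC1 also served as markers of xylem and fibre cells, and all 4 read above the bacterial controls on both arrays. Their log2 differences ran from 0.21 to 0.73, with a median of 0.49. The part of these cells in the differences of CAD2 and LAC10 was not tested. Of 4 phloem marker genes, 3 were kept, and they lay on both sides of 0. The sucrose transporter gene SUT1 had 597 in yellow leaf tips against 1512 in green leaves (-1.26). The genes listed as SUT2 had 1248 against 706 (0.85) and 4712 against 2965 (0.71). Of the peroxidases that could polymerize lignin, 2 were matched by symbol and 1 was kept: PRX112 had 322 against 463 (-0.44) on its kept probe set, and 57.4 against 7.14 on a dimmer one.

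With 2 arrays, likeness between genes comes down to how near their differences lie. Among 1983 named genes outside the lists, the nearest to CAD2 were CCAMK, a calcium- and calmodulin-dependent kinase gene (1.32), the histidine kinase gene HK5 (1.32) and the response regulator gene ORR3 (1.31). The nearest to LAC10 were HK5, CCAMK and the cytochrome P450 gene CYP71P1 (1.33). The value of CCAMK is a mean over 2 probe sets that did not give the same difference. Their mean signals, 314 in yellow leaf tips against 187 in green leaves, lay less than 2-fold apart. Nearest to CAD8C were HAP3I, of the NF-Y family (-0.72), the pathogenesis-related gene PBZ1 (-0.73) and the DREB transcription factor gene DREB1B (-0.72).

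The members' differences were recomputed under 9 other settings of scaling, pseudocount, filter and probe choice. CAD2 ran from 1.25 to 1.35 and LAC10 from 1.16 to 1.39, and both stayed past 2-fold in each. CAD8C ran from -0.79 to -0.22, and the value nearest 0 came when no filter was applied and its dim probe set entered the mean.

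**Figure D4:**
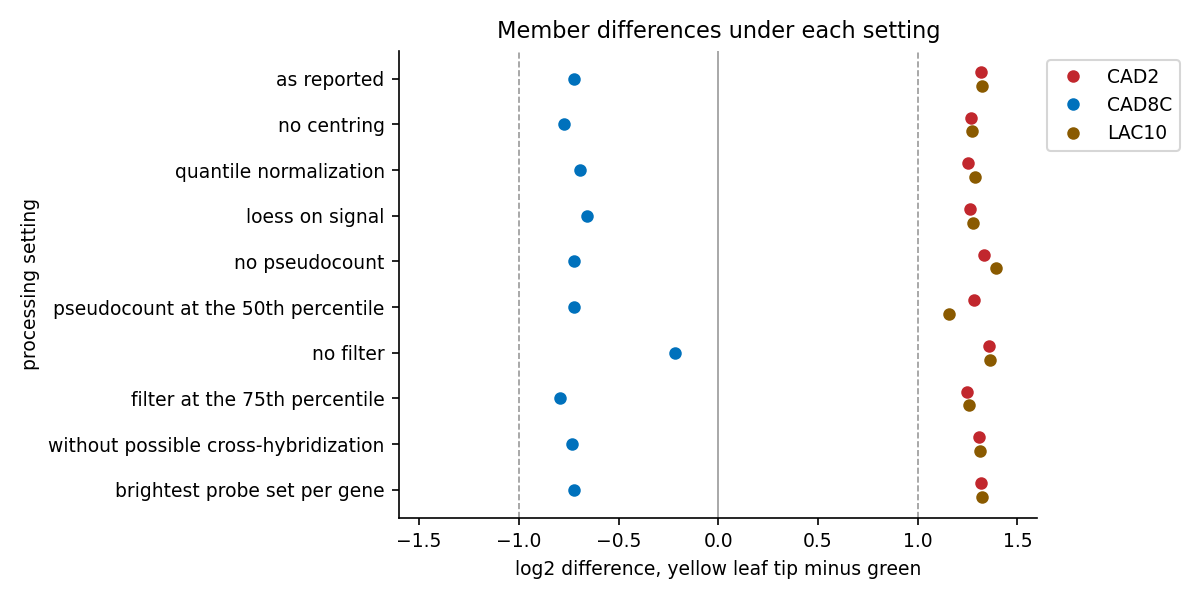
Log2 difference, yellow leaf tip minus green, of CAD2, CAD8C and LAC10 under the reported setting and 9 others, with dashed lines at 2-fold. CAD2 and LAC10 stay to the right of the upper line, and CAD8C stays between the lines and moves to -0.22 without the filter.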

How the data were processed

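Per the labels, total RNA was isolated with a plant RNA kit and turned into biotinylated cRNA. Each probe set has 1 deposited signal intensity per array, not log-transformed. The sources used here do not give the authors' software or scaling. The number of arrays, 1 per group, limits the precision.

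The 123 control probe sets were left out, which left 57258 for rice, and 22.6, the 25th percentile of all values, was added before the deposited values were taken to log2. Probe sets at or above the median of the mean signal were kept (28629), and differences were centred by -0.05. Kept probe sets of a gene were averaged. Genes came from the platform annotation: 22436 probe sets had 1 gene, 95 several and 34727 none listed. All 17905 genes were found in the RefSeq table of assembly ASM3414082v1, used for names and order only. Work was done in Python 3.11.15 with pandas 2.3.3, numpy 2.4.6 and statsmodels 0.14.6 (loess, fraction 0.3). The code was also run on simulated data with larger changes than those of the members and little noise. That run checks the code and says nothing about the members' differences.

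Members and lists were chosen with earlier results of these data known. Lists were matched by whole symbol or synonym; C4H, CSE, CCoAOMT, F5H, dirigent genes and guard cell markers matched no gene. Genes named were the members, their CAD and laccase families, other kept pathway genes, the 2 highest and 2 lowest of each further list, the 3 nearest named genes per member, direct neighbours and markers; LOC4328550, LOC4328555 and CCR1 were named after their values were seen. For completeness, the marker lists of epidermis (WSL3, -0.09), root (LSI1, -0.64) and seed and anther (5 kept genes, median -0.53) were also measured. No probe, promoter or protein sequence was used here.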

Additional observations from a re-analysis of the deposited data

How the results depend on the processing

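The directions of CAD2, CAD8C and LAC10 and of the medians of the lignin pathway and secondary wall lists held under 9 other settings: no centring, quantile normalization, loess on signal, no or a larger pseudocount, no or a stricter filter, no probe sets marked for possible cross-hybridization, and the brightest probe set per gene. The lignin median ran from 0.20 to 0.33 and the secondary wall median from 0.29 to 0.42. A move was judged against the SD between probe sets of a gene, 0.46, since there were no replicates. Without a filter CAD8C moved to -0.22, because its dim probe set entered, and 5 lignin genes were higher instead of 3, CAD8A and LAC20 being added, and 1 was lower instead of 0, LAC19, all at signals within the bacterial controls. At a log2 size of 2, none of the members (0) and 0 lignin genes were counted, where 2 and 3 had been. HCT3 was also below 0 with the stricter filter (-0.01). CAD3 fell short of 2-fold, at 0.98, with the stricter filter (75th percentile). LAC7 passed 2-fold lower without centring, after quantile normalization, after loess and with that filter, from -1.05 to -1.03. Over all genes, 1287 were past 2-fold as reported, 2163 without a filter, 828 with the larger pseudocount and 638 under the stricter filter, while 214 passed a log2 size of 2. No paired analysis was possible because each group had 1 array.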
